A study of Mus musculus with 8 samples.

Results

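The endothelial genes are 32 genes whose products mark the cells that line blood vessels. They were taken by symbol from a table of 16505 mouse genes, all 32 were found in it, and all 32 were among the 13797 genes that passed a filter on low values. The RNA came from the epididymal fat pad, a visceral white adipose depot, of C57BL/6 mice that had eaten a high fat diet for 12 weeks. A wild-type (WT) group of 4 was compared with 4 Mir181 double-knockout animals (the knockout), and both groups shared the strain and the diet. The sources used here do not give the deleted miR-181 loci, the age of the mice, or their litters and housing, and a p-value therefore speaks only of the spread among these 8 libraries. No cell type was isolated, and every value is of whole tissue.

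Endothelial cells form the inner wall of blood and lymph vessels. They answer vascular endothelial growth factor (VEGF) and angiopoietin through receptor tyrosine kinases, seal the wall with cadherin and claudin junctions, and set vessel tone through nitric oxide. In fat, the capillary endothelium also anchors the lipase that frees fatty acids from circulating lipoproteins and passes those fatty acids to the adipocytes, and fat tissue grows and shrinks together with its capillary bed.

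The 4 mature miR-181 microRNAs, from RefSeq on build GRCm38.p6, are shown because the knockout deletes miR-181 loci. Capitals mark the seed (bases 2 to 8). All 4 share 1 seed, and their genes lie on chromosomes 1, 2 and 8, so any locus left intact still carries it.
miR-181a-5p: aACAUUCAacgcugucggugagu
miR-181b-5p: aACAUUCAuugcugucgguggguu
miR-181c-5p: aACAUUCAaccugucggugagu
miR-181d-5p: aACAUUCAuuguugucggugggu
The match to this seed in a messenger RNA is TGAATGT. It occurred in the longest annotated 3′ UTR (GENCODE M21) of 4 of the 32 endothelial genes (12.5%), against 2479 of 12867 tested genes with a 3′ UTR (19.3%). Those 4 genes were Cd93, Clec14a, Cyyr1 and Gpihbp1, and their sites are printed here, with the match in capitals, because 1 of them is the only endothelial gene that fell.
Cd93: agtctttcagTGAATGTtgccc
Clec14a, first site: tggggacactTGAATGTcaagc
Clec14a, second site: ttgcttcataTGAATGTggttt
Cyyr1, first site: tgtcacttaaTGAATGTtttaa
Cyyr1, second site: agtataaactTGAATGTgctct
Gpihbp1: actTGAATGTcgttt
The changes of these 4 genes did not share a direction: Clec14a, Cyyr1 and Gpihbp1 rose in the knockout and Cd93 fell. The Gpihbp1 match starts at base 4 after the stop codon, and the other matches at base 1025 or later. A match of 7 letters is a description of the sequence and not a measured binding site.

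Of the 32 endothelial genes, 28 were higher in the knockout, 1 was lower and 3 did not pass the threshold (limma, Benjamini-Hochberg adjusted p under 0.05, adjusted over all tested genes). Of all tested genes, 22.7% were called higher and 16.1% lower. Higher genes made up 58.6% of those calls, and 46.4%, 48.2% and 44.9% with median centring, quantile normalization or median-ratio scaling. Here and below, median-ratio scaling was fitted with a precision weight for each value and no variance trend, so it changed more than the scale. The median change of the 32 genes was 1.10 on the log2 scale, knockout minus WT, with the middle of the list between 0.81 and 1.23. The median over all tested genes was 0.18, so relative to it the endothelial genes were 0.92 higher. In the same 28 genes every knockout library lay above every WT library, and in 1 gene every knockout library lay below every WT library, where 20.8% and 16.6% of all tested genes were separated in those directions. The median corresponded to 2.14-fold, and 20 genes were at least 2-fold higher. The values are shares of each library's reads. In whole tissue, more endothelial cells, more RNA per endothelial cell and less RNA from other cells therefore cannot be told apart.

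**Figure D1:**
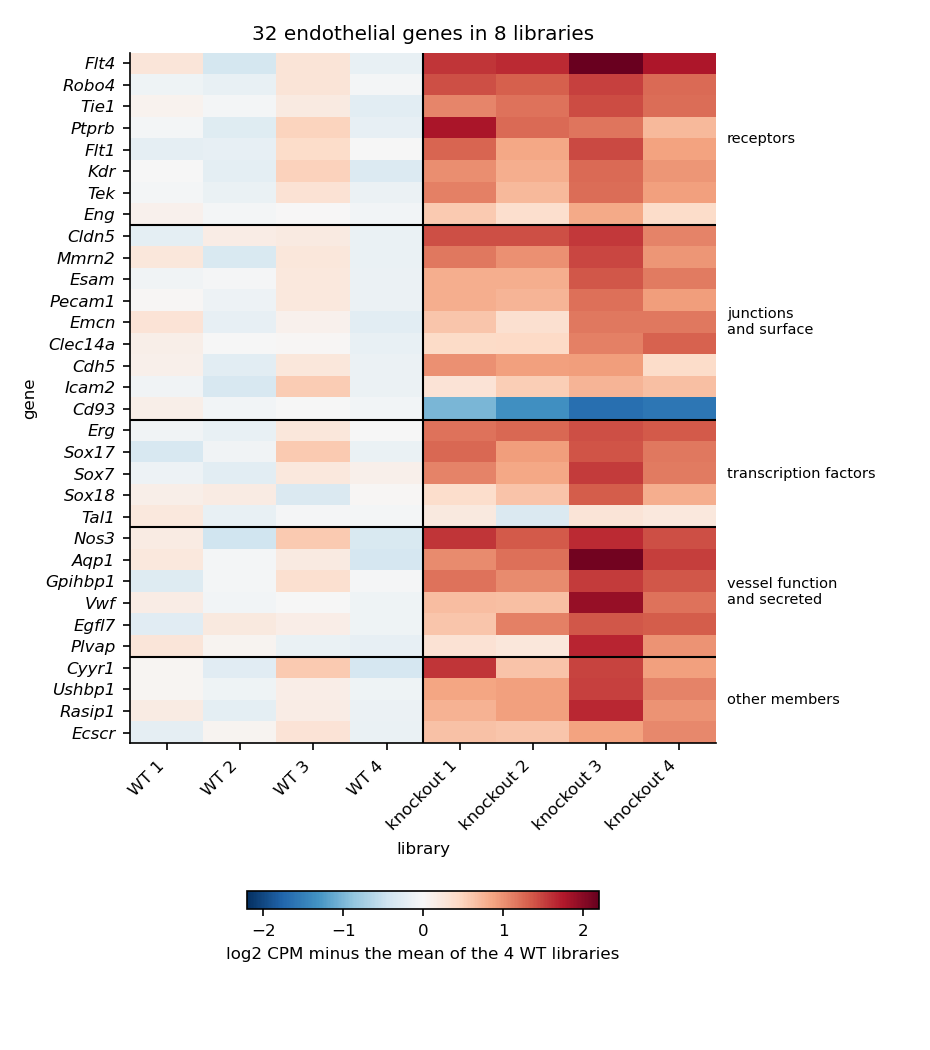
Colour gives each gene's log2 CPM in each library minus its mean over the 4 WT libraries, with genes in rows grouped by role and the 8 libraries in columns. The knockout columns are red for most genes, strongest in knockout 3, while Cd93 is blue in all 4 knockout libraries and Tal1 is pale throughout.

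The endothelial genes were detected in every library. Summed over the 32 genes, the level was 1597, 1429, 1733 and 1386 CPM (reads scaled to the library total) in WT replicates 1 to 4 and 2631, 2437, 3464 and 2618 CPM in knockout replicates 1 to 4. The lowest knockout library thus lay above the highest WT library. Knockout replicate 3 was the highest knockout library for 26 of the 32 genes, and WT replicate 3 the highest WT library for 21. The same counts were not taken over all tested genes, so no shared movement is read from them. Adipocyte markers were also highest in these libraries, with medians relative to the WT mean of 0.55 (WT replicate 3) and 2.43 (knockout replicate 3) log2 units. Macrophage markers were not, at −0.11 and −2.26. No gene had fewer than 22 reads in any library.

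Some properties of the libraries differed alongside the groups. Library totals ran from 3736881 to 76838584 reads, with 4081597 to 15410736 in WT. Ribosomal RNA took over 1% of reads in WT replicates 1, 3 and 4 and knockout replicate 1, and under 1% in the other 4 libraries. Within these classes, in each of which 1 group is a single library and no error can be given, the median change of the endothelial genes was 0.94 and 1.22. In both classes 31 genes had a positive change and Cd93 a negative one. With the class as a covariate in limma, 26 endothelial genes were called higher and 1 lower, and the median was 1.06. Epididymis transcripts took over 1% of reads in WT replicate 2 and knockout replicates 2 and 4, and red blood cell markers took 0.408% and 1.20% in knockout replicates 3 and 4, against at most 0.0830% elsewhere. Without knockout replicates 3 and 4, a choice made after the data were seen, 24 endothelial genes were called higher and 1 lower, while the count of all genes called higher went from 3137 to 1747.

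The receptors rose as a whole: all 8 were called higher, with a median change of 1.17 and a range of 0.55 to 1.79. Flt4, VEGF receptor 3, which is known from lymphatic and sprouting endothelium, had the largest change of the 32 genes. It measured 2.99, 2.33, 3.0 and 2.55 log2 CPM in WT and 4.30, 4.37, 4.89 and 4.50 in the knockout. That is a change of 1.79 ± 0.21 (SE, n = 4 per group), or 3.46-fold, with a limma adjusted p of 0.000291. The groups were separated by more than either group's own range.

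The other VEGF receptors moved less. Kdr, VEGF receptor 2 and the main signalling receptor of blood vessel endothelium, measured 5.98, 5.78, 6.50 and 5.69 log2 CPM in WT and 7.02, 6.79, 7.24 and 6.96 in the knockout. WT replicate 3 came nearest to the knockout libraries without reaching them. The change was 1.01 ± 0.18 (limma adjusted p = 0.00254). Flt1, VEGF receptor 1, which binds VEGF tightly and signals weakly, changed by 1.11 ± 0.18 (limma adjusted p = 0.00161), from 4.78 to 5.39 log2 CPM in WT to between 5.84 and 6.44.

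The angiopoietin receptor Tek (Tie2) and its partner Tie1 also rose. Tie1 measured 4.98, 4.86, 5.11 and 4.68 log2 CPM in WT and 5.98, 6.10, 6.35 and 6.13 in the knockout, a change of 1.23 ± 0.12 (limma adjusted p = 0.000136). Both groups were narrow, with SDs of 0.18 and 0.15. Tek changed by 0.99 ± 0.15 (limma adjusted p = 0.00103). Ptprb, the phosphatase that acts on Tek and on vascular endothelial cadherin, measured 6.27, 6.04, 6.80 and 6.13 in WT and 8.11, 7.56, 7.49 and 7.02 in the knockout. Its highest knockout library was replicate 1 and not replicate 3, and its change was 1.23 ± 0.24 (limma adjusted p = 0.0038).

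Robo4, an endothelial receptor of the roundabout family that stabilises vessels, had the smallest adjusted p of the list. It measured 4.58, 4.52, 4.96 and 4.63 log2 CPM in WT and 6.10, 5.98, 6.18 and 5.92 in the knockout, a change of 1.37 ± 0.12 (limma adjusted p = 8.08e-05). All 4 knockout libraries fell within a narrow band well above WT. Eng (endoglin), the co-receptor for BMP9 and TGF-beta, had the smallest called rise, 0.55 ± 0.12 (limma adjusted p = 0.00579). Its libraries ran from 6.83 to 6.98 in WT and from 7.26 to 7.73 in the knockout. With each library centred on its median gene, its change was 0.41 and no longer passed (limma adjusted p = 0.0614).

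Promoter sequence from RefSeq (GRCm38.p6) is shown for Robo4, Tie1 and Flt1, chosen after the search because their windows hold letters of the ETS core. ETS factors, the family of the member Erg, are known regulators of endothelial promoters. Each window runs from 250 bases before to 50 bases after the gene's start on the gene's own strand, and capitals mark the ETS core letters AGGAAG or CGGAAG on either strand.
Robo4, chr9:37401722-37402021, plus strand: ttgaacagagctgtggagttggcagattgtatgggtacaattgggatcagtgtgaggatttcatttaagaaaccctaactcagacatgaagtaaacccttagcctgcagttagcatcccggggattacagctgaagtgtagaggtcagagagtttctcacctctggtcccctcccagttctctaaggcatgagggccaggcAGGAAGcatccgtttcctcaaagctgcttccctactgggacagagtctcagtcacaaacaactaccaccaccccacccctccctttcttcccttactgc
Tie1, chr4:118489800-118490099, minus strand: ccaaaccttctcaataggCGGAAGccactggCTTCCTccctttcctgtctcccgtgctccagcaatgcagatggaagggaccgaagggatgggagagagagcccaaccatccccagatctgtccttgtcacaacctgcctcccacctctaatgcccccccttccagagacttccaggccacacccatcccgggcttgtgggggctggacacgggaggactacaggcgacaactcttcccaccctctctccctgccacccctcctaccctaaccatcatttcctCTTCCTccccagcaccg
Flt1, chr5:147725962-147726261, minus strand: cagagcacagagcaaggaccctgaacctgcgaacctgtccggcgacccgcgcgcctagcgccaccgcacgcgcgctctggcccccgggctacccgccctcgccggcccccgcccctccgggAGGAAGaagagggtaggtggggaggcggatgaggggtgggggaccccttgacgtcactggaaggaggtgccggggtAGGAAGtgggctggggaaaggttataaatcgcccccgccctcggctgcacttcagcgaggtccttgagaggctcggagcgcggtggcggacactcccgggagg
The table of promoters held 22 windows for 17 of the 32 genes. AGGAAG was present on either strand in 12 of those 22 windows (54.5%), in 11 of the 17 genes, and in 35.4% of all 32851 promoter windows of the same length. CGGAAG was present in 1 of the 22 (4.55%), the Tie1 window, and in 16.9% of all. At least 1 of the motifs was present in 12 of the 22 (54.5%) and in 46.5% of all. The windows of the receptors Kdr, Tek and Flt4, the member with the largest rise, held neither motif, while that of Eng held AGGAAG. These shares describe letters in a fixed window, and binding was not measured.

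Of the 9 junction and surface genes, 7 rose, 1 fell and 1 did not pass, with a median change of 0.82. Cldn5, the claudin of endothelial tight junctions, rose most. It measured 4.78, 5.17, 5.21 and 4.87 log2 CPM in WT and 6.42, 6.42, 6.56 and 6.09 in the knockout, a change of 1.37 ± 0.14 (limma adjusted p = 0.000154). The lowest knockout library lay far above the highest WT library. Cdh5, the cadherin of endothelial adherens junctions, measured 6.93, 6.58, 7.08 and 6.69 in WT and 7.83, 7.73, 7.73 and 7.23 in the knockout, a change of 0.81 ± 0.16 (limma adjusted p = 0.00426). Knockout replicate 4 stood below the other 3 knockout libraries and still above every WT library.

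Pecam1 (CD31), the adhesion molecule used most often to stain vessels, changed by 0.92 ± 0.13 (limma adjusted p = 0.000746). Its libraries read 6.86, 6.73, 7.06 and 6.70 log2 CPM in WT and 7.63, 7.59, 8.05 and 7.76 in the knockout. Esam, a junctional immunoglobulin protein, changed by 1.02 ± 0.15, and Mmrn2, an endothelial matrix protein, by 1.15 ± 0.17 (limma adjusted p = 0.000916 and 0.000942). The groups did not overlap for these 3 genes. Emcn (endomucin), a sialomucin of capillaries and veins, and Clec14a, a lectin-like surface protein and binding partner of Mmrn2, each changed by 0.82, with SEs of 0.21 and 0.22. Both were highest in knockout replicates 3 and 4: Emcn read 5.0, 4.74, 5.55 and 5.54 in knockout replicates 1 to 4, and Clec14a 3.94, 3.96, 4.63 and 4.81. These are the libraries richest in red blood cell markers, and without them the changes were 0.48 (limma adjusted p = 0.106) and 0.43 (0.0855). Clec14a also missed the threshold when WT replicate 4 (limma adjusted p = 0.0523) or knockout replicate 3 (0.0516) was left out.

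Cd93 was the exception. It encodes a surface receptor of the same lectin family as Clec14a that also binds Mmrn2 and is carried by monocytes and macrophages as well as endothelium. It measured 8.27, 8.08, 8.13 and 8.09 log2 CPM in WT and 7.13, 6.78, 6.48 and 6.55 in the knockout. The change was −1.40 ± 0.15 (limma adjusted p = 0.000153), a level 2.65-fold lower, and every knockout library lay below every WT library. Its changes within the ribosomal RNA classes were −1.03 and −1.47. Cd93 thus moved opposite to its ligand Mmrn2 and to its relative Clec14a in the same libraries. Macrophage markers fell in these libraries too: 17 of 19 were called lower and 1, Cd163, was called higher, and their summed level was 12132 to 14281 CPM in WT and 2315 to 3373 CPM in the knockout. The part of macrophage RNA in the Cd93 value was not tested. Icam2, an adhesion molecule of endothelium and platelets, read 3.63, 3.36, 4.26 and 3.59 in WT and 4.02, 4.24, 4.46 and 4.37 in the knockout. WT replicate 3 lay inside the knockout range, and the change of 0.56 ± 0.21 did not pass (limma adjusted p = 0.0569). Without WT replicate 3 the change was 0.75 (0.0110), and without knockout replicate 1 it was 0.65 (0.0404).

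**Figure D2:**
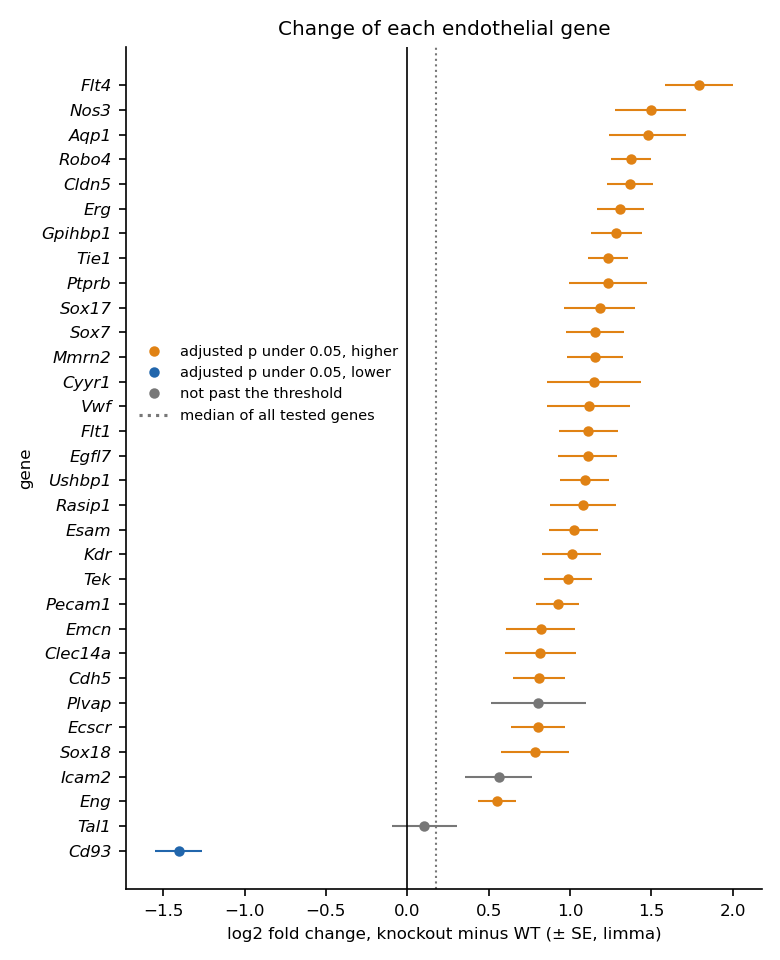
Points give the log2 fold change of each endothelial gene, knockout minus WT, with limma standard errors as bars, and the dotted line is the median of all tested genes at 0.18. Flt4 is at the top with 1.79, Tal1 is near 0, and Cd93 alone lies on the negative side at −1.40.

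Of the 5 transcription factors, 4 rose and 1 did not pass, with a median change of 1.15. Erg, the ETS factor that maintains endothelial identity, measured 2.85, 2.76, 3.18 and 2.92 log2 CPM in WT and 4.13, 4.20, 4.35 and 4.27 in the knockout. The change was 1.31 ± 0.15 (limma adjusted p = 0.000222), and the 4 knockout libraries had the smallest SD of all 32 members (0.10). The 3 SoxF factors, which act in arterial and lymphatic development, all rose: Sox17 by 1.18 ± 0.22, Sox7 by 1.15 ± 0.18 and Sox18 by 0.79 ± 0.21. Their limma adjusted p-values were 0.00286, 0.00118 and 0.0162. Sox18 was highest in knockout replicate 3 (5.31, against 4.37, 4.62 and 4.79), and without knockout replicates 3 and 4 its change was 0.51 (limma adjusted p = 0.0829). Tal1, a factor of blood and endothelial precursors that is also active in red cell and mast cell lineages, read 2.99, 2.60, 2.74 and 2.71 in WT and 2.98, 2.45, 3.05 and 2.99 in the knockout. The groups overlapped, and the change of 0.10 ± 0.20 did not pass (limma adjusted p = 0.699). Its sign turned negative under median centring (−0.039), quantile normalization (−0.17) and median-ratio scaling (−0.065).

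Of the 6 genes of vessel function and secreted proteins, 5 rose and 1 did not pass, with a median change of 1.20. Nos3, the endothelial nitric oxide synthase, measured 4.53, 3.92, 4.93 and 4.02 log2 CPM in WT and 5.92, 5.70, 6.00 and 5.76 in the knockout. The change was 1.50 ± 0.22 (limma adjusted p = 0.000845). The WT libraries were spread over about 1 log2 unit and the knockout libraries were tight. Gpihbp1, which carries lipoprotein lipase across the capillary wall and holds it at the lumen, measured 5.09, 5.35, 5.73 and 5.36 in WT and 6.58, 6.42, 6.92 and 6.74 in the knockout. It rose by 1.28 ± 0.16 (limma adjusted p = 0.000349).

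Aqp1, the water channel of capillary endothelium and of red blood cells, measured 7.43, 7.16, 7.39 and 6.82 log2 CPM in WT and 8.25, 8.42, 9.33 and 8.72 in the knockout. It rose by 1.48 ± 0.24 (limma adjusted p = 0.00143). The highest libraries were knockout replicates 3 and 4, and without them the change was 1.13 (limma adjusted p = 0.00445). Vwf (von Willebrand factor), the clotting glycoprotein stored by endothelium, read 6.56, 6.55, 7.80 and 7.08 in the knockout against 5.79 to 6.05 in WT. Its change was 1.11 ± 0.25 (limma adjusted p = 0.00813), and 0.67 without knockout replicates 3 and 4 (0.00464). Egfl7, a secreted endothelial matrix factor, rose by 1.11 ± 0.18 (limma adjusted p = 0.00159).

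Plvap, the protein of the diaphragms of fenestrated capillaries, did not pass. It read 5.98, 5.76, 5.56 and 5.53 log2 CPM in WT and 6.02, 5.96, 7.38 and 6.69 in the knockout. Knockout replicates 1 and 2 were level with WT replicate 1, while replicates 3 and 4 stood above all others. The change was 0.81 ± 0.29 (limma adjusted p = 0.0559). It was 0.97 (0.0302) without knockout replicate 1, 0.99 (0.0255) without replicate 2, and 0.28 (0.211) without replicates 3 and 4.

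The remaining 4 members all rose, with a median change of 1.08. Rasip1, a Ras-interacting protein needed for vessel lumens, changed by 1.08 ± 0.20, and Ushbp1 by 1.09 ± 0.15 (limma adjusted p = 0.00317 and 0.000649). Ecscr, an endothelial surface regulator of migration, changed by 0.80 ± 0.17 (limma adjusted p = 0.00503). Cyyr1, the member with the lowest level per exon length in both groups, read 2.46, 2.17, 3.0 and 2.06 log2 CPM in WT and 3.99, 3.06, 3.91 and 3.33 in the knockout. WT replicate 3 came within a small step of knockout replicate 2, and the change was 1.15 ± 0.29 (limma adjusted p = 0.0127). It missed the threshold under quantile normalization (0.86, limma adjusted p = 0.0880), median-ratio scaling (0.94, 0.0674) and without knockout replicates 3 and 4 (1.10, 0.0659).

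Levels of different genes were compared per exon length, as CPM per kilobase of exon (RPKM), with the exon lengths of GENCODE M21. In WT, Aqp1 was highest at 56.0 RPKM, followed by Cd93 at 42.2, Eng at 29.3, Cdh5 at 26.9, Plvap at 26.3, Cldn5 at 22.7 and Pecam1 at 18.3. In the knockout the order was Aqp1 at 156, Cldn5 at 58.6, Cdh5 at 47.1, Plvap at 45.9 and Eng at 42.9. Cd93 went from rank 2 to rank 12, at 16.0 RPKM. Flt4 and Cyyr1 were the lowest in WT, at 0.801 and 0.604 RPKM. These levels are anti-logs of group means, and the exon lengths come from a different annotation than the one used for counting.

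**Figure D3:**
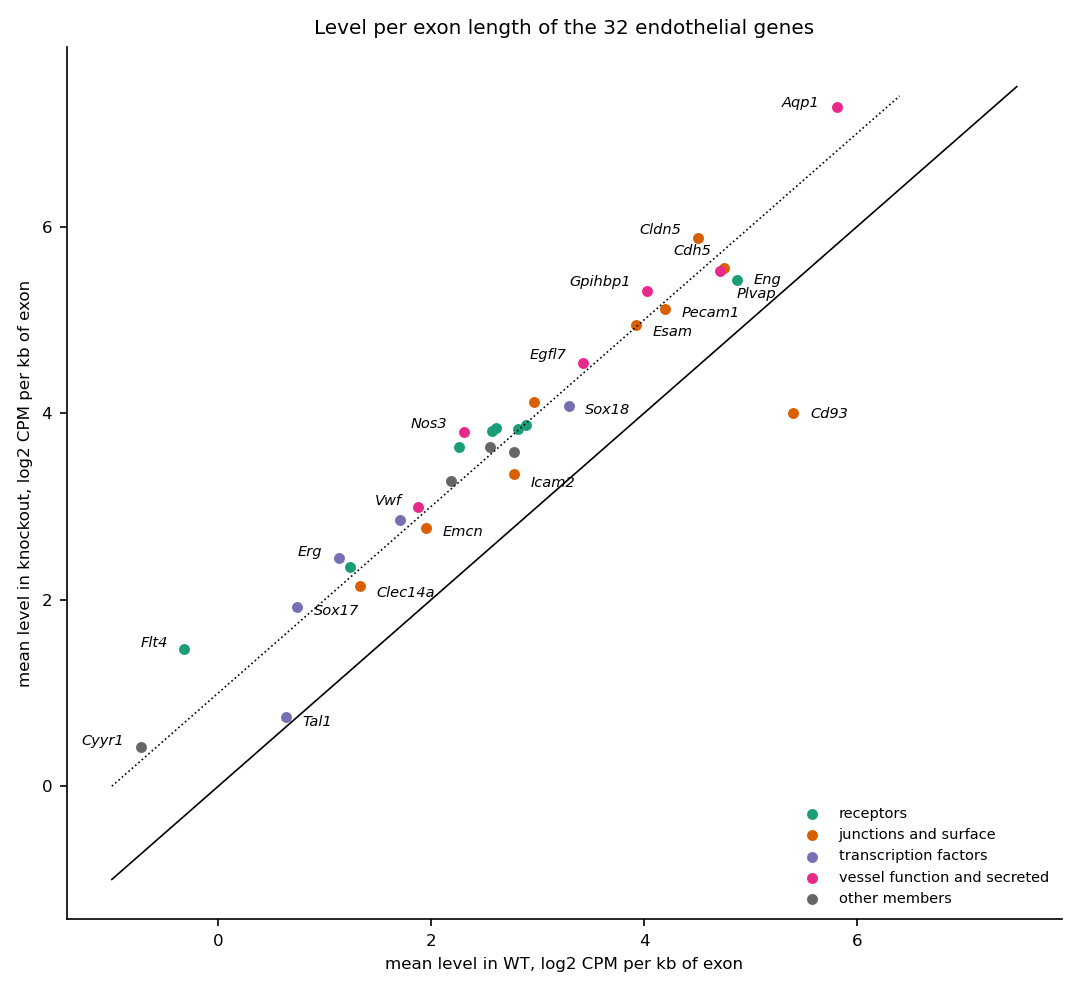
Each point is an endothelial gene, with its mean level in WT on the x axis and in the knockout on the y axis, both as log2 CPM per kilobase of exon, coloured by role, with 21 of the genes labelled. The solid line marks equal levels and the dotted line a level 1 log2 unit higher; most genes lie near the dotted line and Cd93 lies well under the solid one.

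Other pan-endothelial genes, 32 that are not among the members, were tested beside them: 23 were called higher and 4 lower, with a median change of 0.98. For this and every later list, the shares over all tested genes were 22.7% higher and 16.1% lower. Arhgef15, an exchange factor of endothelial migration, rose by 1.16 ± 0.13 and Podxl, a sialomucin of the vessel lumen, by 1.37 ± 0.16 (limma adjusted p = 0.000248 and 0.000303). The 4 that fell were Stab2, a scavenger receptor of sinusoidal endothelium, Nostrin, which traffics nitric oxide synthase, Calcrl, the adrenomedullin receptor, and Rasgrp3, a Ras exchange factor. Stab2 changed by −2.27 ± 0.25 (limma adjusted p = 0.000209) and Nostrin by −2.09 ± 0.27 (0.000489), both further from 0 than any member. Calcrl changed by −0.80 ± 0.20 (limma adjusted p = 0.0115), whereas its receptor partner Ramp2 rose by 1.02 ± 0.18 (0.00225). Rasgrp3 changed by −0.76 ± 0.16 (limma adjusted p = 0.00607), and was not called without the 3 libraries rich in epididymis reads (−0.59, 0.0651) or without knockout replicates 3 and 4 (−0.58, 0.0525). Summed over this list, the level was 1317 to 1846 CPM in WT and 2175 to 3049 CPM in the knockout. Among the companion genes described here, up to 3 per list were named for the smallest p. The others, such as Calcrl, Rasgrp3 and Ramp2, were chosen after their values were seen.

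Among the ligands and co-receptors of the VEGF receptors, 3 of 7 rose and 2 fell. Vegfa, the main ligand of Kdr and Flt1, rose by 1.79 ± 0.18 (limma adjusted p = 0.000128), Vegfb, a ligand of Flt1, by 1.68 ± 0.19 (0.000266), and Vegfc, the ligand of Flt4, by 0.82 ± 0.19 (0.00881). Vegfc was not called under quantile normalization (0.57, limma adjusted p = 0.0752) or without knockout replicates 3 and 4 (0.81, 0.0515). The co-receptors went the other way: Nrp2 changed by −1.39 ± 0.13 and Nrp1 by −0.55 ± 0.14 (limma adjusted p = 0.000103 and 0.0119). The fall of Nrp1 was not called without the 3 libraries rich in epididymis reads (−0.38, limma adjusted p = 0.118). The ligands and co-receptors thus did not move in 1 direction while all 3 VEGF receptors rose. Of the 4 genes of the angiopoietin list, which are Angpt1, Angpt2, Angpt4 and also Svep1, none was called in limma. None had an unadjusted p under 0.05. Angpt2, the ligand that can antagonise Tek, had a change of −0.54 ± 0.25 (limma adjusted p = 0.115), and was called lower without knockout replicate 4 (−0.71, 0.0467), with median-ratio scaling (−0.79, 0.0398) and with the replicate number as a block (−0.54, 0.0429). Angpt1, the agonist of Tek, had a change of 0.71 ± 0.54 (0.323).

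**Figure D4:**
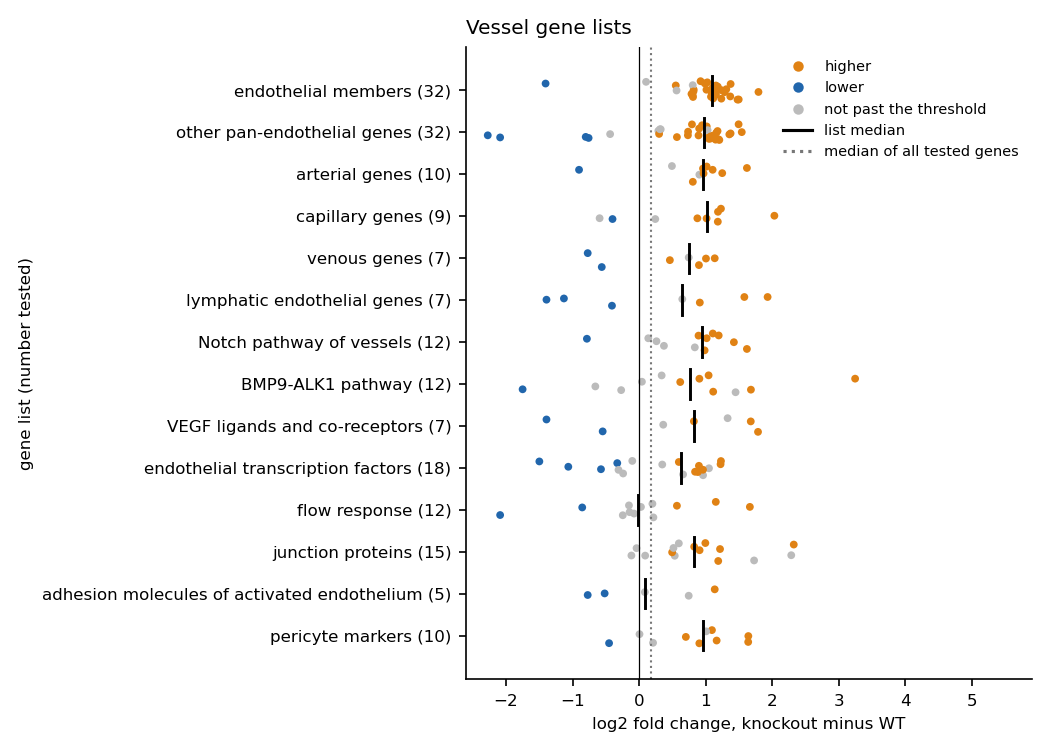
Each point is a gene of a vessel list and gives its log2 fold change, knockout minus WT, coloured by whether limma called it, with short black bars at the list medians and a dotted line at the all-gene median of 0.18. The medians of the members and of the arterial, capillary and Notch lists lie near 1, whereas the flow response median lies at −0.02.

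In the Notch pathway, which sets arterial and tip cell fate, 7 of 12 genes rose and 1 fell, with a median of 0.94. The ligand Dll4 changed by 1.62 ± 0.21, the ligand Dll1 by 1.20 ± 0.16 and the endothelial receptor Notch4 by 1.11 ± 0.11 (limma adjusted p = 0.000488, 0.000569 and 0.000137). The gene that fell was Rbpj, the DNA-binding factor of the pathway, at −0.78 ± 0.14 (limma adjusted p = 0.00231). In the BMP9-ALK1 pathway, the route in which Eng acts, 6 of 12 rose and 1 fell. Its target Id3 rose by 1.11 ± 0.20 (limma adjusted p = 0.00277) and the extracellular regulator Bmper fell by 1.75 on the log2 scale (SE 0.28, 0.00146). Smad9 had a change of 3.24 ± 0.56 (limma adjusted p = 0.00207), but it had as few as 1 read in a library, and with log2(CPM + 1) the change was 2.05.

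Of the flow-response genes, 3 of 12 were higher and 2 lower, and the median was −0.02. These shares are close to the 22.7% higher and 16.1% lower among all tested genes. Thbd (thrombomodulin) rose by 1.66 ± 0.25, Cav1 (caveolin) by 1.15 ± 0.22 and S1pr1, the sphingosine 1-phosphate receptor, by 0.57 ± 0.13 (limma adjusted p = 0.000967, 0.00363 and 0.00742). Mef2c fell by 0.85 on the log2 scale (SE 0.14, limma adjusted p = 0.00172), and Nostrin is the other. S1pr1 was no longer called under median centring (0.42, limma adjusted p = 0.0619). Endothelial transcription factors outside the members split in these whole-tissue values, with 7 of 18 higher and 4 lower. The part of macrophages and other cells in these values was not tested. Foxo1 rose by 1.22 ± 0.13 and Epas1 by 0.88 ± 0.15 (limma adjusted p = 0.000182 and 0.00204), and Lmo2, a partner of Tal1 in blood and vessel precursors, fell by 1.50 on the log2 scale (SE 0.11, 3.38e-05). Hhex, Fli1 and Elk3 also fell, by 1.06, 0.57 and 0.33 on the log2 scale (limma adjusted p = 0.00264, 0.027 and 0.0257). Fli1 lost its call without any 1 of WT replicates 3 and 4 and knockout replicates 2, 3 and 4 (limma adjusted p of 0.0594 to 0.0830). Elk3 lost it without any 1 of WT replicates 2, 3 and 4 and knockout replicates 2 and 4 (0.0556 to 0.0764), or with the replicate number as a block (0.0612). Neither was called with a ribosomal RNA covariate (limma adjusted p = 0.0926 for Fli1 and 0.0765 for Elk3), without the 3 libraries rich in epididymis reads (0.166 and 0.351) or without knockout replicates 3 and 4 (0.148 and 0.0812).

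The vessel segments were described by lists of arterial, capillary and venous genes. Of the arterial genes 7 of 10 rose and 1 fell, with a median of 0.96, led by Dll4, Sema3g (1.25 ± 0.19) and the ephrin Efnb2 (0.97 ± 0.16; limma adjusted p = 0.00103 and 0.00187). Of the capillary genes 6 of 9 rose and 1 fell, with a median of 1.01, led by Rgcc (2.03 ± 0.27), Cd300lg (1.18 ± 0.17) and Tcf15 (1.23 ± 0.30; limma adjusted p = 0.000523, 0.000774 and 0.0118). Tcf15 was not called under quantile normalization (0.85, limma adjusted p = 0.0657) or without knockout replicates 3 and 4 (1.31, 0.0508). The genes that fell were the chemokine receptor Cxcr4 (−0.90, limma adjusted p = 0.028) and Kitl, the ligand of the receptor Kit (−0.40, 0.0262). Cxcr4 lost its call without any 1 of WT replicates 1, 3 and 4 and knockout replicate 2 (limma adjusted p of 0.0547 to 0.0850), and Kitl without any 1 of WT replicates 3 and 4 and knockout replicates 2, 3 and 4 (0.0526 to 0.0650). Neither was called with a ribosomal RNA covariate (limma adjusted p = 0.103 for Cxcr4 and 0.0990 for Kitl), without the 3 libraries rich in epididymis reads (0.0584 and 0.165) or without knockout replicates 3 and 4 (0.0765 and 0.100).

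Of the 7 tested venous genes, 4 rose and 2 fell, with a median of 0.74. Ephb4, the venous partner of Efnb2, rose by 1.00 ± 0.13 (limma adjusted p = 0.000492). Nr2f2, the factor of venous identity, was higher by 0.90 (limma adjusted p = 0.0217), and not called without WT replicate 3, WT replicate 4 or knockout replicate 3 (0.0562 to 0.0620), with median-ratio scaling (0.0576), with a ribosomal RNA covariate (0.0692) or without knockout replicates 3 and 4 (0.51, 0.0972). The atypical chemokine receptor Ackr1 (1.14, limma adjusted p = 0.0465) lost its call without any 1 library except knockout replicates 1 and 2 (0.0786 to 0.109), and Lrg1 (0.46, 0.0464) without any 1 except WT replicate 3 and knockout replicate 4 (0.0508 to 0.129). Both also lost it under most other alternatives, among them median centring (limma adjusted p = 0.0705 for Ackr1 and 0.184 for Lrg1), and without knockout replicates 3 and 4 the change of Ackr1 was 0.38 (0.220). The 2 that fell were the leukocyte adhesion molecule Vcam1 (−0.77 ± 0.19, limma adjusted p = 0.0114) and Il1r1 (−0.56 ± 0.13, 0.00948). Vcam1 also counts among the 5 tested adhesion molecules of activated endothelium, of which Ackr1 rose, and Vcam1 and Icam1 (−0.52 ± 0.13, limma adjusted p = 0.0119) fell. Without the 3 libraries rich in epididymis reads these 3 falls were not called (limma adjusted p = 0.0849 for Vcam1, 0.112 for Il1r1 and 0.0910 for Icam1).

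The lymphatic list, in whose vessels Flt4 also acts, was split with 3 of 7 tested genes higher and 3 lower, and a median change of 0.65. Its summed level went the other way, at 288 to 350 CPM in WT and 187 to 241 CPM in the knockout. Reln (1.93 ± 0.46), Mmrn1 (1.58 ± 0.40) and the hyaluronan receptor Lyve1 (0.91 ± 0.26) were higher (limma adjusted p = 0.0102, 0.0133 and 0.021). Nrp2, Pdpn (podoplanin; −1.13 ± 0.23, limma adjusted p = 0.00448) and Itga9 (−0.41 ± 0.13, 0.0383) were lower. Prox1, the master factor of lymphatic identity, was under the filter on low values. Lyve1 lost its call without any 1 of WT replicate 1 and knockout replicates 3 and 4 (limma adjusted p of 0.0516 to 0.0633), and Itga9 without any 1 library except knockout replicates 1 and 3 (0.0549 to 0.0977). Without knockout replicates 3 and 4 none of Reln (1.55, limma adjusted p = 0.0951), Mmrn1 (1.14, 0.116), Lyve1 (0.62, 0.168) and Itga9 (−0.38, 0.0770) was called. Reln (1.77, limma adjusted p = 0.0530) and Itga9 (−0.23, 0.388) were also not called without the libraries rich in epididymis reads, Lyve1 under median centring (0.77, 0.0523), and Itga9 with a ribosomal RNA covariate (−0.45, 0.0537).

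Of 13 genes of fatty acid transfer across the endothelium, 7 rose and 1 fell, with a median of 0.57. Vegfb was among those that rose, as was Meox2, a capillary factor of fatty acid uptake, at 0.84 ± 0.20 (limma adjusted p = 0.00973), or 0.78 and not called (0.0687) without the 3 libraries rich in epididymis reads. The fatty acid binding protein Fabp5 fell by 1.01 on the log2 scale (SE 0.23, limma adjusted p = 0.00807), and by 0.64 without knockout replicates 3 and 4 (0.0419). Of 15 junction proteins outside the members, 7 rose and none fell, with a median of 0.83. Jup (plakoglobin) changed by 1.19 ± 0.12, Tjp1 by 0.99 ± 0.13 and F11r by 1.22 ± 0.19 (limma adjusted p = 0.000131, 0.000547 and 0.00115). Of 10 markers of pericytes, the cells that wrap capillaries, 6 rose and 1 fell, with a median of 0.96. Mcam rose by 1.64 ± 0.14 and Abcc9 by 1.09 ± 0.18 (limma adjusted p = 6.1e-05 and 0.00178), and Pdgfrb fell by 0.45 on the log2 scale (SE 0.09, 0.00438), or by 0.43 and not called (0.0671) without the 3 libraries rich in epididymis reads.

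**Figure D5:**
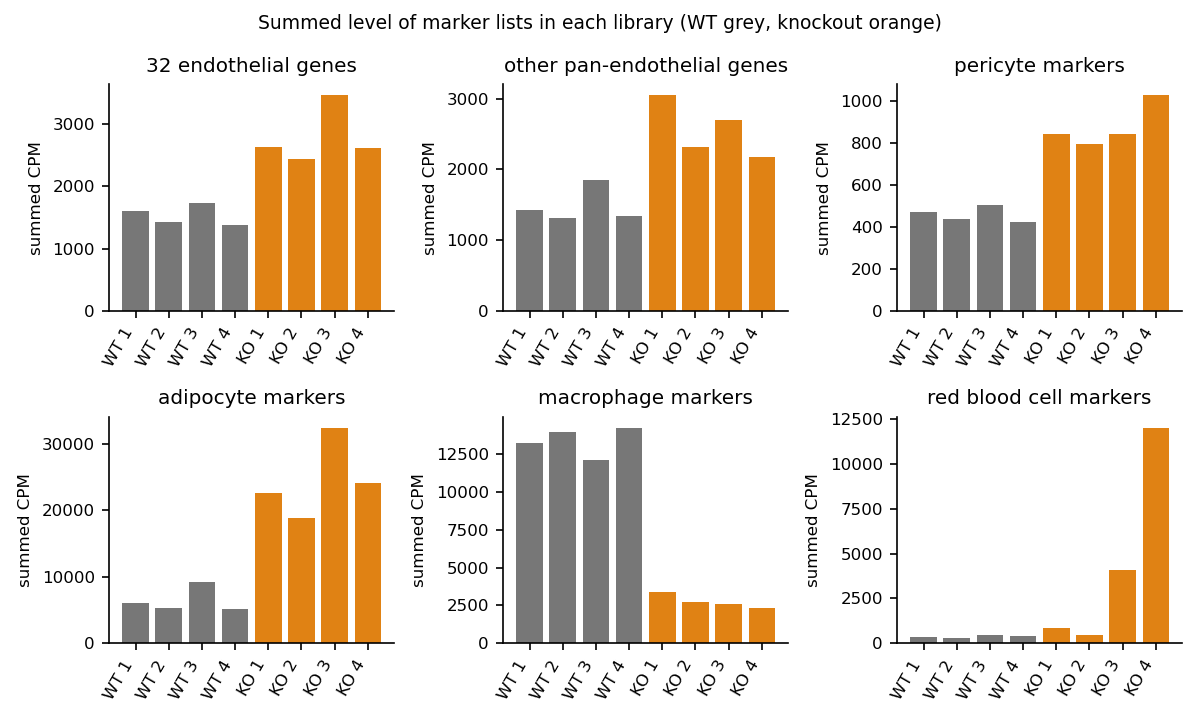
Bars give the summed CPM of each marker list in each of the 8 libraries (WT grey, knockout orange, labelled KO), 1 panel per list, each axis starting at 0. The endothelial, pericyte and adipocyte sums are higher in every knockout library than in every WT library, the macrophage sums are lower, and the red blood cell sum stands out in knockout replicates 3 and 4.

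Other cell types moved with the groups as well. Adipocyte markers were higher for 14 of 15 genes, and their sum was 5175 to 9262 CPM in WT and 18802 to 32514 CPM in the knockout. In an alternative chosen after the data were seen, the libraries were scaled to totals without the adipocyte and macrophage markers and ribosomal RNA genes. It called 28 endothelial genes higher and 1 lower, with a median change of 1.04. The adipocyte markers took only 0.517% to 3.25% of a library's reads and the macrophage markers 0.231% to 1.43%. Other RNA of these cells stayed in the totals, so this alternative cannot show the change without it. Of 7 mast cell markers 5 fell (Mcpt4, Cma1, Tpsb2, Cpa3 and Fcer1a), and of 10 progenitor and fibroblast markers 4 fell (Lum, Thy1, Col1a1 and Col3a1) and Dpp4 rose. Of the smooth muscle markers Acta2, Tagln and Lmod1 rose among 7, and of the mesothelial markers Msln, Upk3b, Lrrn4 and Krt19 rose among 9. Knockout replicate 4 stood out for smooth muscle: the sum was 381, 750, 375 and 3436 CPM in knockout replicates 1 to 4. In WT replicates 1 to 4 it was 170, 402, 172 and 158 CPM. The mesothelial sum was also highest in knockout replicate 4, at 585 CPM, and WT replicate 2 (246) lay above knockout replicate 1 (172). Red blood cell markers rose for 2 of 7 (Hba-a1 and Hba-a2), and of 4 platelet markers Pf4 fell. Of 8 T cell markers none was called in limma, with 4 at an unadjusted p under 0.05, and of 24 epididymis markers none was called and none had an unadjusted p under 0.05. The part of these shifts in cell makeup in the values of the endothelial genes and of every companion list was not tested.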

How the data were processed

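Poly(A) RNA of epididymal fat was sequenced from 4 WT and 4 knockout mice with a stranded kit, per the labels' protocols. The submitters' processing notes list Trimmomatic, TopHat2, featureCounts and limma and the mouse build mm9, with versions not given in the sources used here. A table of log2 CPM values for 16505 genes was deposited by the authors. These equal log2 of CPM with 0.5 added to each count. Whole reads and library totals were worked out from them, and 100% of them lay within 0.01 of an integer read count.

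The deposited log2 values were fitted with limma 3.58.1 in R 4.3.3 (lmFit, then eBayes with a trend), with group as the only term, on genes averaging at least 0 log2 CPM, with Benjamini-Hochberg adjustment over all of them at 0.05. Changes are knockout minus WT with limma's SE. The script was tested on simulated data. All 32 members are named, and from each vessel list up to 3 genes with the smallest p. The members and lists were chosen with earlier results of these data known. Adgrl4 and Adgrf5 were looked up under their older symbols Eltd1 and Gpr116. Exon lengths and 3′ UTRs came from GENCODE M21, and microRNA and promoter sequences from RefSeq (GRCm38.p6), which is a different build than the one used for counting. The shallowest library had 3736881 reads. With every library thinned to that depth, 2736 genes were called higher and 2013 lower, against 3137 and 2216 in the main fit. Plots were drawn with matplotlib 3.10.9. Alternatives changed the scale, filter, normalization, variance model, weights, replicate block, depth, ribosomal RNA handling and the libraries included.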

Additional observations from a re-analysis of the deposited data

Results flagged for a closer look

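Of 186 groups of 4 values checked for a value standing apart (Dixon's test at its 95% critical value), 6 were flagged, where chance flags about 1 in 20. Of the endothelial genes, Cdh5 stood apart in knockout replicate 4, at 7.23 log2 CPM against 7.73 to 7.83 in the other knockout libraries, and Tal1 in knockout replicate 2, at 2.45 against 2.98 to 3.05. Of the companion genes, Nrp2 stood apart in knockout replicate 1 at 6.30 log2 CPM, Rasgrp3 in the same library at 5.23, Cav1 there at 11.6, and Cd300lg in WT replicate 3 at 6.61.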

How the results depend on the processing

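Under every alternative fitted with a test, which leaves out the values within a ribosomal RNA class, 24 to 30 endothelial genes were called higher and 1 lower, and the median change, within classes included, stayed between 0.91 and 1.22. Leaving out each library in turn gave 27 to 30 higher and medians of 0.94 to 1.15, with 2131 to 4068 of all genes higher and 1827 to 2302 lower. Of the members' own values under the alternatives, 745 kept direction and call, 12 lost the call, 7 gained it and 4 changed sign. The count of all genes called higher was 1747 without knockout replicates 3 and 4. The 4 sign changes were those of Tal1 (−0.039 with median centring, −0.17 with quantile normalization, −0.065 with median-ratio scaling and −0.050 without knockout replicates 3 and 4). Outside the members, Angpt1 changed sign without the same libraries (−0.37). The cause was not tested. With a covariate for the ribosomal RNA class, Sox18 (0.60, limma adjusted p = 0.0591) and Clec14a (0.69, 0.0585) were not called. Clec14a was also not called without the libraries rich in epididymis reads (0.76, 0.0566). Array weights called Plvap (1.15, limma adjusted p = 0.00747) and Icam2 (0.65, 0.0245).

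Same-numbered WT and knockout libraries had correlated deviations of 0.36, 0.79, 0.24 and −0.36, and only replicate 2 correlated best with its own number, so the numbers were not taken as pairs. With the replicate block, 3232 genes were higher and 2136 lower, 29 endothelial genes were higher, Icam2 included (limma adjusted p = 0.0411), and the members' median was 1.10. A count-based quasi-likelihood test was planned and not run. The deposited unit is log2 CPM, although whole reads could be worked out from it. Genes near the filter rest on few reads in the shallow libraries. Ribosomal RNA class and red blood cell content overlapped with genotype in part: 1 knockout library was over 1% ribosomal RNA and 1 WT library under it.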
